A study of Bos taurus with 18 samples.

Results

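The comparison described here set the endometrium of 3 Holstein cows (Bos taurus; cows A, B and C) on day 7 of a progestin-treated cycle against the same cows on day 4 of an untreated cycle. Its libraries were chosen by label, as the treated day 7 and the untreated day 4 libraries of the 17-OHPC/P4 arm paired by cow letter, which gave 6 of the 18 libraries of the study. Each cow went through Ovsynch, a hormonal protocol that synchronizes ovulation, before each of 2 cycles, and day 0 was estrus. The first cycle was sampled on days 4 and 7 with no progestin given. In the second cycle the cow received, on day 4, a depot injection of 100 mg 17α-hydroxyprogesterone caproate (17-OHPC, a long-acting progestin ester) with 10 mg progesterone (P4), and was sampled on day 7. Cows D, E and F formed a second arm with the same samplings and 100 mg P4 as the injection. The treated libraries therefore differed from the day 4 libraries in cycle day, in cycle and in injection, and these cannot be told apart. Replicates within a group were separate cows, and the libraries of a cow were repeated samples of that cow.

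Material was brushed with a cytobrush from the uterine horn next to the corpus luteum, which samples mainly the surface lining, and poly(A) RNA was sequenced. The 6 libraries held 29347255 to 39010196 counts. Mitochondrially encoded genes took 6.58%, 4.72% and 6.20% of counts on day 4 in cows A, B and C and 7.04%, 9.65% and 7.37% in their treated libraries, so the groups did not overlap in this share. General epithelial markers (18 rows) summed to between 6310 and 6851 CPM (counts scaled to a common library size) on day 4 and to between 6646 and 7333 CPM in the treated libraries, and none of the 18 was at 0 in all 6 libraries. Stromal markers differed more between cows than between groups. They summed to 827, 485 and 8819 CPM on day 4 and to 674, 559 and 4382 CPM in the treated libraries of cows A, B and C. In bulk tissue, fewer cells of a type and less RNA per cell cannot be told apart.

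Progesterone from the corpus luteum acts through the progesterone receptor (PGR) and turns the estrogen-dominated endometrium into a secretory one. In cattle the luminal and glandular epithelium then stores lipid, transports amino acids and glucose into the uterine fluid that nourishes the embryo before attachment, and lowers its own PGR. Days 4 to 7 span the rise of luteal progesterone, so earlier or higher progestin is of interest for the uterine environment that meets the embryo.

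Expression differed widely between the paired libraries. With each cow as her own control, 832 of 19638 genes were higher and 197 lower on treated day 7 (edgeR quasi-likelihood test, adjusted p under 0.05), which are 4.24% and 1.0% of genes tested and together 5.24%. Counts of called members in the gene lists below are to be read against these shares. The median log2 change was 1.78 among the genes called higher, -1.03 among those called lower and -0.09 over all genes tested. The fitted change was positive for 8726 of the 19638 genes. The change had the same direction in 3 of 3 cows for 1028 of the 1029 called genes, against 53.3% of all genes tested. For 840 of the called genes the 3 treated values did not overlap the 3 day 4 values, which was so for 23.9% of all genes. The called genes were chosen by a test on these same values, so neither count is independent evidence.

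These counts depended on the pairing and on single libraries. With the cows ignored, 129 genes were higher and 5 lower, each among the genes called above. Repeats that left out 1 of the 6 libraries called 608 genes without the day 4 library of cow A, 88 without that of cow B and 238 without that of cow C, and 347, 192 and 215 without the treated library of cow A, B or C. Paired tests fitted to fewer libraries gave more lower genes, with 1675 higher and 1714 lower on the 9 libraries of cows A, B and C, and 664 and 523 on the 6 libraries compared. These are called the 9-library and 6-library fits below. Both estimate the spread from fewer residual degrees of freedom than the test on all 18 libraries, the 6-library fit from the fewest. A gene that passed only in them is therefore not better supported than by that test. The left-out libraries are written A4, B4, C4, A7, B7 and C7. Of the 103 called genes that the naming rules chose or that were singled out, 22 passed in all 6 repeats, 20 passed without the pairing, and 0 changed sign in any repeat or other setting. Genes called on these same libraries were unlikely to change sign when 1 was left out, so the last count is not independent evidence.

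The 15 called genes with the smallest p among those higher were led by genes known from muscle, lipid metabolism, lysosomes and the cell surface. MYH7B, a myosin heavy chain, had 13.6, 6.1 and 5.36 CPM in cows A, B and C on day 4 and 783, 444 and 360.3 CPM in their treated libraries (log2 change 6.05 ± 0.52 SE, adjusted p = 0.00177). MEP1B, the beta subunit of the membrane protease meprin, went from 0.676, 0.249 and 0.0496 to 18.9, 12.2 and 3.48 CPM (5.38 ± 0.49, adjusted p = 0.00177). CERS6, a ceramide synthase, went from 10.8, 4.61 and 4.32 to 175, 55.6 and 59.3 CPM (3.80 ± 0.35, adjusted p = 0.00177). In each of these genes every treated value lay above every day 4 value. MCOLN3, a cation channel of endosomes and lysosomes, rose from 5.8, 1.25 and 2.46 to 229.5, 147 and 98.5 CPM (5.76 ± 0.54). FXYD4, a small regulator of the sodium pump, rose from 8.87, 0.997 and 0.695 to 193, 95.6 and 71.2 CPM (5.71 ± 0.60). CYP39A1, an oxysterol hydroxylase of bile acid metabolism, reached 1976, 1545 and 415 CPM from 123, 26.3 and 17.6 CPM (4.81 ± 0.51). Cow C had the lowest treated CYP39A1 value and cow A the highest.

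CL46, a bovine collectin of innate defence, rose from 0.197, 0.0311 and 0.0993 to 4.57, 5.13 and 3.75 CPM (5.42 ± 0.55, adjusted p = 0.00304), and reads may be shared with near-identical collectin genes. Day 4 values of CL46, like those of MEP1B, were near 0, so the size of either change rests on few counts. AKAP6, an anchor of protein kinase A known from heart muscle, rose from 9.88, 4.58 and 2.01 to 168, 122 and 143 CPM (4.91 ± 0.55). KLRG2, of the lectin-like receptor family, rose from 5.41, 0.498 and 0.397 to 41.1, 12.1 and 10.5 CPM (3.99 ± 0.44). Cow A was the highest of the 3 cows in both libraries for AKAP6 and KLRG2. LY6G6E, a surface protein of the LY6 family, rose from 59.01, 76.6 and 58.3 to 331, 275 and 298 CPM (2.22 ± 0.25), with little spread among cows. ENPP4, an ectonucleotidase, changed by 2.77 ± 0.31, RTP3, a receptor transporter, by 2.94 ± 0.33, SS18L1, a calcium-responsive transcription co-activator, by 3.23 ± 0.37, and NUPR1, a nuclear protein induced by stress, by 3.08 ± 0.36. For those 4 genes the adjusted p lay between 0.00353 and 0.00413. MYH7B, MEP1B, CERS6, MCOLN3, FXYD4, CYP39A1, CL46, AKAP6, KLRG2, LY6G6E, ENPP4, RTP3, SS18L1 and NUPR1 passed in all 6 repeats. Without the pairing, MYH7B, MEP1B, CERS6, MCOLN3, FXYD4, CYP39A1, CL46, AKAP6 and LY6G6E passed and KLRG2, ENPP4, RTP3, SS18L1 and NUPR1 did not (adjusted p from 0.0522 to 0.117).

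**Figure D1:**
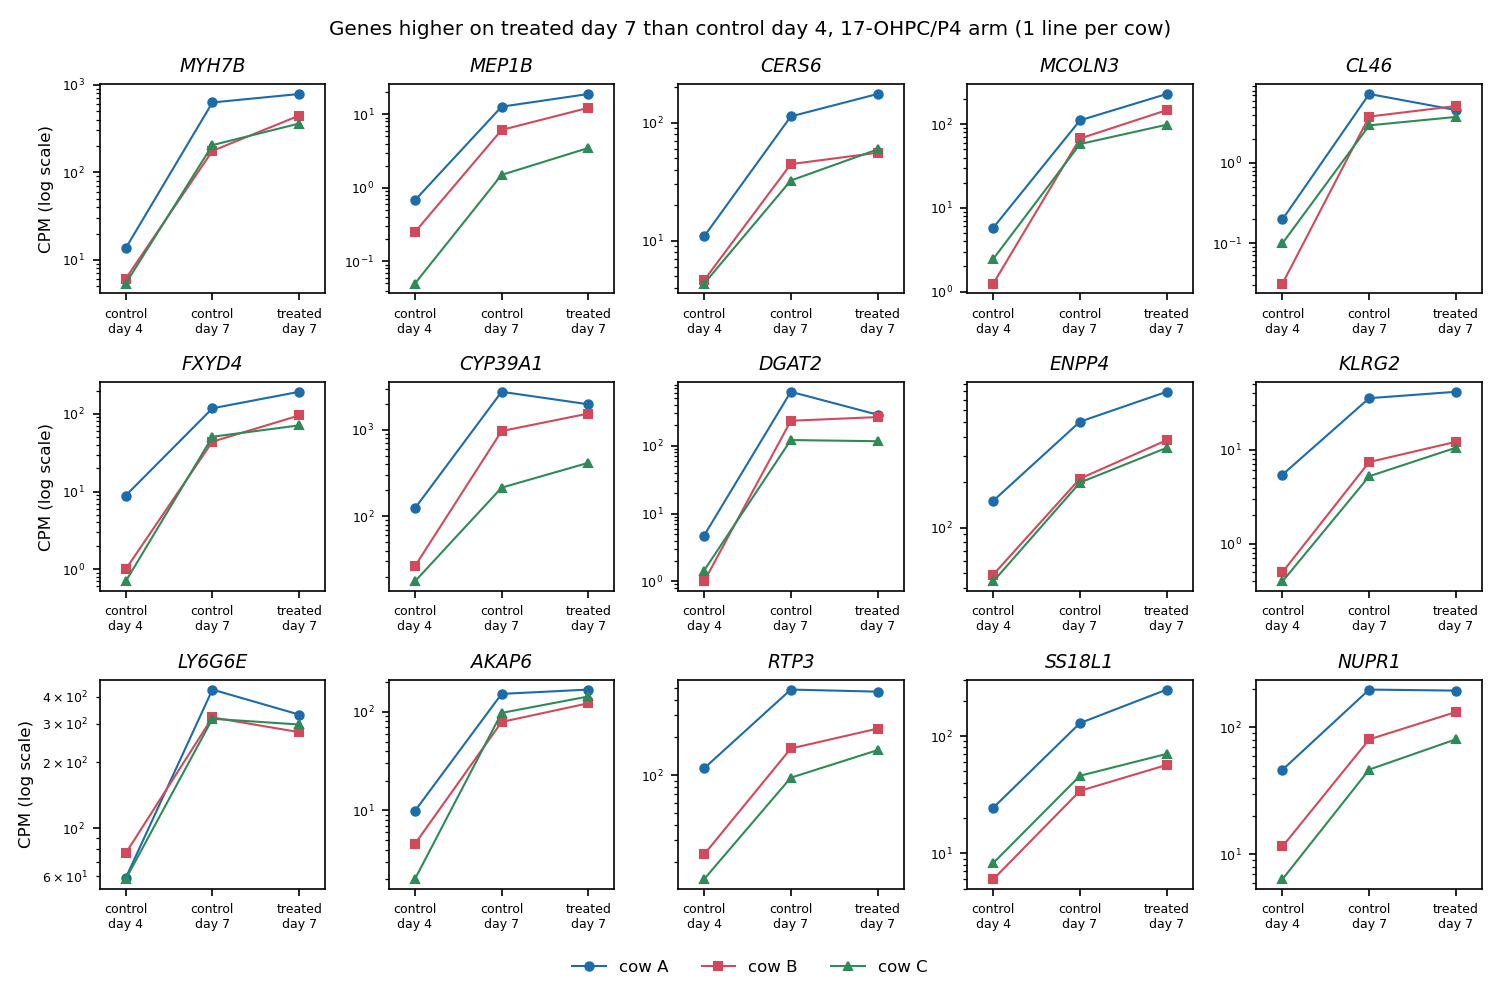
CPM on a log scale for the 15 higher genes with the smallest p, in control day 4, control day 7 and treated day 7 libraries, with 1 line per cow. In each panel the 3 treated points lie above the 3 day 4 points, and the untreated day 7 point of each cow also lies above her day 4 point.

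The list of muscle and calcium genes was drawn up after MYH7B and MCOLN3 were known to change in these cows, so its count is not independent evidence. Of 26 members tested, 7 were higher and 0 lower, and the median change of the list was 1.15. MYBPC2, a myosin-binding protein that is not on the list, was called lower and is described with the lower genes. MYL3, a myosin light chain, rose from 1.75, 0.28 and 0.0993 to 11.6, 10.4 and 7.89 CPM (4.54 ± 0.77, adjusted p = 0.0118). Its untreated day 7 values were 38.3, 9.91 and 9.89 CPM, so in cows A and C the untreated day 7 value exceeded the treated one. The other called members were MYH7B, MCOLN3 and AKAP6, with SRL, a calcium-binding protein of the sarcoplasmic reticulum (2.57), SSUH2 (2.88) and DISC1, a scaffold protein (3.58). Repeats without 1 library called 5 to 9 members, the fewest without B4, and 6 passed without the pairing. Left-out libraries ended the call of MYL3 without B4, B7 or C4 (adjusted p from 0.0534 to 0.0786). The unpaired test did not call MYL3 (adjusted p = 0.0654).

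Among genes of triglyceride synthesis and storage, 3 rose. DGAT2, which catalyses the last step of triglyceride synthesis, went from 4.73, 0.997 and 1.44 CPM on day 4 to 287, 265 and 117 CPM in the treated libraries (6.74 ± 0.73, adjusted p = 0.00353). PLIN2, the coat protein of lipid droplets, went from 104, 51.2 and 63.4 to 428, 213 and 210.5 CPM (1.93 ± 0.28, adjusted p = 0.0068). MGLL, which releases fatty acid from monoglycerides, went from 25.5, 5.08 and 25.6 to 92.96, 67.6 and 58.98 CPM (2.15 ± 0.50, adjusted p = 0.0355). No treated value of DGAT2, PLIN2 or MGLL fell within the day 4 range. These 3 were the called members of 27 tested, 0 were lower, and the list median was 0.35. Leaving out single libraries kept the call of DGAT2 and ended it for PLIN2 without B4, and MGLL without any library but C4 (adjusted p from 0.0537 to 0.126). With cows ignored, DGAT2 passed, unlike PLIN2 and MGLL (adjusted p from 0.0599 to 0.0943).

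Fatty acid uptake and oxidation gave 10 higher members of 39 tested and 1 lower, with a list median of 0.65. SLC27A6, a fatty acid transporter, had 3.77, 0.311 and 0 CPM on day 4 and 92.8, 31.3 and 16.1 CPM after treatment (6.06 ± 0.79, adjusted p = 0.00547). With so few day 4 counts in cows B and C, the size of this change is uncertain. The acyl-CoA synthetases, which activate fatty acids, were split by gene. ACSL4, which prefers arachidonic acid, rose from 812, 60.05 and 94.2 to 2638, 892 and 1230.3 CPM (2.98 ± 0.62), and ACSL3, of the lipid droplet surface, from 292, 132 and 74.7 to 1157, 617 and 424 CPM (2.23 ± 0.41). ACSL5 fell from 102, 196 and 157 to 20.9, 61.2 and 76.1 CPM (-1.66 ± 0.43, adjusted p = 0.049). The list had 0 lower members in each of the 6 repeats, without the pairing and with no filter, so the call of ACSL5 was lost in all of these. PPARGC1A, a co-activator of mitochondrial oxidation genes, rose from 2.82, 6.35 and 1.04 to 23.6, 19.7 and 9.83 CPM (2.60 ± 0.65, adjusted p = 0.0445). The nuclear receptors PPARA (1.33) and PPARD (1.10), the carnitine transferases CPT1A (1.56) and CPT1B (1.16) and the transporter SLC27A4 (1.22) were also called higher. Between 1 and 5 members were higher in the repeats, with 1 without B4, B7 or C4, 2 without A7 or C7 and 5 without A4, and 0 without the pairing. SLC27A6 passed in all 6 repeats, and the call was lost for ACSL3 without any library but A4 and A7, ACSL4 without any library but A4, and PPARGC1A without any 1 of the 6 libraries (adjusted p from 0.0512 to 0.146). Without the pairing, none of these 4 passed (adjusted p from 0.0854 to 0.161).

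Cholesterol synthesis and uptake had 4 of 26 members higher and 0 lower, with a list median of 0.57. Of the 26 fitted changes 21 were positive, against 8726 of 19638 over all genes tested. MSMO1, a sterol methyl oxidase, went from 234, 191 and 84.7 to 953, 612 and 357 CPM (1.92 ± 0.31, adjusted p = 0.0093). The reductase TM7SF2 (1.50 ± 0.35) and the demethylase CYP51A1 (1.13 ± 0.27) had adjusted p of 0.0368 and 0.0406. The day 4 and treated values of CYP51A1 overlapped across cows, with 177, 125 and 49.2 CPM against 269.6, 302 and 135 CPM. The call was lost for MSMO1 without B4, C4 or C7, CYP51A1 without any library but A7, and TM7SF2 without any 1 of the 6 libraries (adjusted p from 0.051 to 0.157). The unpaired test did not call any of these genes (adjusted p from 0.106 to 0.267). TM7SF2 also lost its call in limma voom, where its adjusted p rounded to 0.05.

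Of the steroid receptors and their co-regulators, 1 passed the test, which is 5% of those tested against 5.24% of all genes. PGR had 109, 46.7 and 65.1 CPM on day 4 and 53.6, 33.7 and 81.4 CPM in the treated libraries (-0.43 ± 0.25, adjusted p = 0.281), lower in cows A and B and higher in cow C. ESR1, the main estrogen receptor, had 609, 486 and 695 and 303, 285 and 449 CPM (-0.80 ± 0.30, adjusted p = 0.127). Its groups did not overlap, and the change did not pass here or in the 6-library fit (adjusted p = 0.0722) but passed in the 9-library fit (adjusted p = 0.0323). ESR2, the second estrogen receptor, rose from 34.5, 11.6 and 6.58 to 116, 45.8 and 34.3 CPM (2.02 ± 0.42, adjusted p = 0.0232), and was the 1 called member of 20 receptors and co-regulators, whose median change was -0.02. Left-out libraries ended the call of ESR2 without any 1 of the 6 libraries (adjusted p from 0.0508 to 0.109). With cows ignored, ESR2 missed the threshold (adjusted p = 0.145).

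Genes known to respond to progesterone in the early luteal endometrium gave 7 higher of 40 tested and 0 lower, with a median of 0.41 that came to -0.11 within cow A, 1.02 within cow B and 0.44 within cow C. Members were picked with results of these cows known, so the count is not independent evidence of direction. Besides DGAT2 and MEP1B, they were SLC1A1, LPAR3, ANPEP, PTGER4 and TSC22D3. SLC1A1, a transporter of acidic amino acids, rose from 258, 179 and 60.2 to 1914, 1368 and 632 CPM (3.08 ± 0.40, adjusted p = 0.00547). LPAR3, a lysophosphatidic acid receptor linked to embryo spacing, rose from 32.5, 3.55 and 1.39 to 65.4, 110.4 and 33.8 CPM (3.57 ± 0.76, adjusted p = 0.0253). ANPEP, an aminopeptidase of the apical membrane, rose from 1299.8, 644 and 189 to 6646, 3748 and 3443 CPM (2.89 ± 0.62, adjusted p = 0.0258). Every treated value was above every day 4 value for these 3 genes. TSC22D3, a leucine zipper protein induced by steroid hormones, changed by 1.47 ± 0.34 with overlapping groups. FKBP5, a chaperone partner of steroid receptors, was 384, 267 and 108 CPM on day 4 and 512, 185 and 295 CPM after treatment (0.42 ± 0.41, adjusted p = 0.525), higher in cows A and C and lower in cow B. Repeats called 3 to 7 members, with 3 without B4, B7 or C7, and the unpaired test 2. The 9-library fit called 8 higher and 4 lower and the 6-library fit 5 and 3. SLC1A1 passed in all 6 repeats, and the call was lost for LPAR3 without any library but A4 and A7, and ANPEP without any library but A4 (adjusted p from 0.0794 to 0.126). Without the pairing, none of these 3 passed (adjusted p from 0.0522 to 0.181).

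Estrogen-responsive genes had a median of -0.92, with 4 of 19 fitted changes positive. The members called were 2 higher and 0 lower, with 4 lower at an unadjusted p under 0.05. This split depended on the fit, since 9 were lower in the 9-library fit, 5 in the 6-library fit, 4 with DESeq2 and 1 with limma voom. PDZK1, a scaffold of apical transporters, rose from 19.5, 2.65 and 0.645 to 124, 86.5 and 70.5 CPM (4.45 ± 0.92, adjusted p = 0.0227). TGFA, a ligand of the epidermal growth factor receptor, rose from 18.05, 23.8 and 16.1 to 63.5, 27.4 and 43.7 CPM (1.15 ± 0.27, adjusted p = 0.0338). LTF, lactoferrin, an iron-binding defence protein known to respond to estrogen, had 3841, 20249 and 11365 CPM on day 4 and 336, 3666 and 2470.4 CPM in the treated libraries. It was lower in each cow, but the fitted change of -2.71 ± 1.26 did not pass (adjusted p = 0.195), although its groups did not overlap. LTF passed in the 9-library fit (adjusted p = 0.00981) and the 6-library fit (adjusted p = 0.0362). Calls were lost in the repeats for TGFA without any library but B4 and B7, and PDZK1 without any library but A4 and A7 (adjusted p from 0.0733 to 0.154). The unpaired test did not call PDZK1 and TGFA (adjusted p from 0.0915 to 0.108).

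Prostaglandin and oxytocin genes moved in both directions, with 2 higher and 1 lower of 22 tested and a median of -0.15. AKR1B1, an aldo-keto reductase that makes prostaglandin F in the bovine endometrium, rose from 729, 78.2 and 82.6 to 3289.7, 3217 and 1212 CPM (3.70 ± 0.68, adjusted p = 0.0159), with the caveat that its gene family has close copies. PTGER4, a receptor for prostaglandin E, rose from 5.63, 5.36 and 10.6 to 46.99, 37.6 and 23.9 CPM (2.29 ± 0.49, adjusted p = 0.0258). SLCO2A1, which carries prostaglandins across the membrane, fell from 1.72, 8.94 and 4.79 to 0.192, 1.29 and 1.64 CPM (-2.37 ± 0.55, adjusted p = 0.0343), at low levels. PTGS2, the inducible cyclooxygenase, had 41.5, 1.9 and 10.4 CPM and then 15.7, 109 and 74.6 CPM, lower in cow A and higher in cows B and C (adjusted p = 0.319). OXTR, the oxytocin receptor, had 302, 391 and 1072 and 64.8, 213 and 703 CPM, lower in each cow, and did not pass (-1.26 ± 0.64, adjusted p = 0.226). The call was lost for AKR1B1 without any library but A4 and A7, PTGER4 without any library but C4, and SLCO2A1 without any 1 of the 6 libraries (adjusted p from 0.0578 to 0.159). With cows ignored, these genes all missed the threshold (adjusted p from 0.0549 to 0.112).

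In steroid metabolism 2 of 19 tested genes were higher and 0 lower, with a median of 0.27. HSD17B4, an enzyme of peroxisomal beta-oxidation and estradiol oxidation, rose from 209, 67.6 and 71.6 to 668, 462 and 343 CPM (2.23 ± 0.37, adjusted p = 0.0109). HSD17B12, which elongates very long fatty acids and reduces estrone, rose from 102, 73.6 and 72.2 to 252, 174 and 127 CPM (1.12 ± 0.27, adjusted p = 0.043). The treated values of both lay above the day 4 range. Left-out libraries ended the call of HSD17B4 without B4, B7 or C4, and HSD17B12 without any 1 of the 6 libraries (adjusted p from 0.0535 to 0.168). Without the pairing, none of these 2 passed (adjusted p from 0.0642 to 0.107).

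Polyamine metabolism had 4 members higher and 1 lower of 17 tested, with a median of 0.65. SAT1, which acetylates spermidine and spermine for breakdown or export, rose from 554, 225 and 227 to 2564, 1584 and 1535 CPM (2.57 ± 0.31, adjusted p = 0.00482). ODC1, the first and rate-limiting enzyme of polyamine synthesis, rose from 1105, 179 and 136 to 3528, 1305 and 1374 CPM (2.51 ± 0.56, adjusted p = 0.0311). The untreated day 7 values were 977, 802 and 922 CPM for SAT1 and 925, 613 and 738 CPM for ODC1, below the treated value of the same cow for both genes. Neither gene passed in the test of treated against untreated day 7. SMS, spermine synthase, rose from 322, 129 and 108 to 544, 344 and 372 CPM (1.27 ± 0.31), and AMD1, which supplies the aminopropyl donor, changed by 0.67 ± 0.17. SRM, spermidine synthase, fell from 13.1, 17.9 and 17.7 to 2.59, 5.69 and 7.26 CPM (-1.77 ± 0.45, adjusted p = 0.0477). The synthetic steps thus did not all move one way. Repeats called 1 to 3 members higher and 0 lower, with 3 without A4, and without the pairing 1 passed. All 6 repeats called SAT1, but not ODC1 and SMS without any library but A4, and SRM without any 1 of the 6 libraries (adjusted p from 0.0981 to 0.194). The unpaired test called SAT1 but not ODC1, SMS and SRM (adjusted p from 0.121 to 0.147).

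Among nutrient transporters 3 of 32 tested were higher and 1 lower, with a median of 0.12. The called members were 12.5% of those tested, against 5.24% of all genes. Besides SLC1A1, the glutamine carriers SLC38A1, from 128, 64.9 and 74.5 to 449, 194 and 194 CPM (1.60 ± 0.29), and SLC38A7, of the lysosome, from 24.3, 20.1 and 20.95 to 96.5, 68.6 and 45.7 CPM (1.64 ± 0.33), rose in each cow. SLC1A3, a glutamate transporter of the same family as SLC1A1, fell from 2.42, 2.8 and 1.69 to 0.256, 0.303 and 0.493 CPM (-2.77 ± 0.65, adjusted p = 0.037). SLC2A1, the basal glucose transporter, had 52.6, 51.9 and 52.5 CPM on day 4, 82.4, 87.1 and 74.3 CPM in the treated libraries, and 253, 77.5 and 78.3 CPM on untreated day 7 (0.63 ± 0.47, adjusted p = 0.4). Its treated values were above the day 4 values in every cow but did not pass. Calls were lost in the repeats for SLC38A1, SLC38A7 and SLC1A3 without any 1 of the 6 libraries (adjusted p from 0.0518 to 0.155). With cows ignored, SLC38A7 passed, unlike SLC38A1 and SLC1A3 (adjusted p from 0.0729 to 0.101).

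Some genes of amino acid, iron and apical membrane function were singled out after their values were seen, and no count over them is read as a result. PHGDH and PSAT1, the first enzymes of serine synthesis, rose from 425, 36.8 and 16.6 to 1453, 778 and 495 CPM (3.53 ± 0.81) and from 965, 41.95 and 116 to 3757, 1649 and 1465 CPM (3.52 ± 0.60). The next enzyme of the path, PSPH, had lower values in each treated library at -1.33 ± 0.67 and did not pass (adjusted p = 0.225). MTHFD1L, of mitochondrial one-carbon metabolism, changed by 2.32 ± 0.37. The proline enzymes PRODH, which breaks proline down, and ALDH18A1, which makes its precursor, changed by 3.74 ± 0.92 and 1.73 ± 0.40. Cow A had the highest day 4 value of the 3 cows for the 5 of these genes that were called. ALDH4A1, of proline breakdown, was lower in each cow and did not pass (-0.77 ± 0.38, adjusted p = 0.214). SLC11A2, the iron importer of endosomes and apical membranes, rose from 1134, 295 and 333 to 3906, 4061 and 1980.3 CPM (2.75 ± 0.49). CYBRD1, an iron reductase that works with it, rose from 33.3, 21.9 and 9.51 to 626, 219 and 159.6 CPM (3.85 ± 0.56, adjusted p = 0.0068). FTH1, the heavy chain of the iron store ferritin, had 1315, 1840.0 and 2298 CPM on day 4 and 546, 1335 and 951 CPM in the treated libraries, lower in each cow, and did not pass (adjusted p = 0.0854).

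At the apical surface, LRP2 (megalin), an endocytic receptor for carrier proteins, rose from 227, 14.3 and 9.51 to 1414, 1733 and 989 CPM (5.22 ± 0.96, adjusted p = 0.0159). Its partner receptor CUBN had 0.901, 1.25 and 2.13 CPM on day 4 and 0.448, 1.01 and 1.04 CPM after treatment and did not pass (adjusted p = 0.194). ALPL, tissue-nonspecific alkaline phosphatase, rose from 201, 24.8 and 75.1 to 1389, 1141 and 871 CPM (3.89 ± 0.61, adjusted p = 0.00905). SLC13A5, a sodium-coupled citrate carrier, went from 627, 16.4 and 22.7 to 5707, 3363 and 2306 CPM (5.49 ± 1.33, adjusted p = 0.0413), with a day 4 level in cow A far above those of cows B and C. HAVCR1, a receptor for phosphatidylserine, went from 0.113, 0.0623 and 0 to 3.14, 34.9 and 0.329 CPM, and with so few day 4 counts no fold is given. CYBRD1 passed in all 6 repeats, and the call was lost for MTHFD1L, ALPL and HAVCR1 without B4, PSAT1 without B4 or C4, SLC11A2 and LRP2 without any library but A4 and A7, and PHGDH, PRODH, ALDH18A1 and SLC13A5 without any library but A4 (adjusted p from 0.0537 to 0.171). Without the pairing, MTHFD1L and CYBRD1 passed and PHGDH, PSAT1, PRODH, ALDH18A1, SLC11A2, LRP2, ALPL, SLC13A5 and HAVCR1 did not (adjusted p from 0.0502 to 0.193).

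Transcription factors tied to uterine receptivity gave 3 higher of 26 tested and 0 lower, with a median of 0.02, and 7 higher and 4 lower in the 9-library fit. PAX2, a factor of the Müllerian duct and its epithelium, rose from 448, 132 and 129 to 1666, 943 and 805 CPM (2.44 ± 0.38, adjusted p = 0.00905). GATA2, which works upstream of and with PGR in the uterus, rose from 540.3, 125 and 153 to 1468, 762 and 639.9 CPM (2.03 ± 0.41, adjusted p = 0.0207). EPAS1, a hypoxia-inducible factor subunit, rose from 137, 53.8 and 73.97 to 696, 295 and 237 CPM (2.13 ± 0.37, adjusted p = 0.0127). All 3 were above the day 4 range in each treated library. HAND2, a stromal progesterone target, had 4.45, 0.436 and 17.7 CPM and then 2.11, 2.78 and 9.53 CPM (adjusted p = 0.995). Left-out libraries ended the call of PAX2 without B4 or C4, EPAS1 without B4, B7 or C7, and GATA2 without any library but A4 (adjusted p from 0.051 to 0.115). The unpaired test did not call any of these genes (adjusted p from 0.058 to 0.132).

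Growth factor and cytokine pathways gave few calls each. In the insulin and IGF list 1 of 20 passed: INSR, the insulin receptor, rose from 25.4, 23.6 and 18.3 to 191, 95.7 and 58.2 CPM (2.15 ± 0.40, adjusted p = 0.0166). In LIF and STAT3 signalling 2 of 26 were higher, TGFA and the interleukin-6 receptor IL6R, from 212, 90.7 and 51.6 to 608, 325 and 257 CPM (1.88 ± 0.40, adjusted p = 0.0244). BMPR2, a receptor for bone morphogenetic proteins, was the 1 called of 29 in the TGF-beta, activin and myostatin list (1.10 ± 0.26, adjusted p = 0.0369), while the ligand MSTN went from 27.8, 6.23 and 17.3 to 3.39, 10.5 and 17.8 CPM, with no shared direction among cows (adjusted p = 0.846). The medians of these 3 lists were -0.24, 0.04 and -0.24. Their called members were 5%, 7.69% and 3.45% of those tested, near the 5.24% of all genes. Among the repeats, the threshold was missed for INSR without any library but C4, and IL6R and BMPR2 without any 1 of the 6 libraries (adjusted p from 0.0526 to 0.161). With cows ignored, these genes all missed the threshold (adjusted p from 0.0528 to 0.138).

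The WNT and hedgehog list had 2 members higher and 1 lower of 41 tested, with a median of 0.10. Together these were 7.32% of the members tested, near the 5.24% of all genes. WNT11, a ligand, rose from 52.9, 1.93 and 1.64 to 124, 145 and 69.03 CPM (3.99 ± 1.03, adjusted p = 0.0499). PTCH1, the hedgehog receptor and itself a hedgehog target, rose from 20.6, 14.7 and 14.5 to 44.9, 26.95 and 32.7 CPM (1.06 ± 0.17, adjusted p = 0.0093), while the transducer SMO fell from 19.8, 37.6 and 46.8 to 2.62, 11.5 and 20.02 CPM (-1.98 ± 0.51, adjusted p = 0.0489). The ligand IHH, a target of progesterone in mouse epithelium, stayed between 1.02 and 6.25 CPM in these libraries (adjusted p = 0.604). WNT5A, a stromal ligand, had 452, 84.5 and 156 CPM and then 207, 177 and 285 CPM, lower in cow A and higher in cows B and C (adjusted p = 0.842). Calls were lost in the repeats for PTCH1 without B4, C4 or C7, WNT11 without any library but A4 and A7, and SMO without any 1 of the 6 libraries (adjusted p from 0.0521 to 0.208). Without the pairing, none of these 3 passed (adjusted p from 0.0633 to 0.225).

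Among matrix proteases, their inhibitors and cathepsins, 3 of 35 were higher and 0 lower, with a median of 0.21, and 4 and 4 passed in the 9-library fit. TIMP3, an inhibitor of metalloproteases bound to matrix, went from 53.3, 75.00 and 144 to 1307, 513 and 400.5 CPM (2.93 ± 0.64, adjusted p = 0.0284). ADAM10, a sheddase of surface proteins, went from 159, 109 and 92.02 to 736, 283 and 254 CPM (1.69 ± 0.34, adjusted p = 0.02), and the lysosomal protease CTSV from 75.5, 58.2 and 99.7 to 353, 369 and 210.0 CPM (1.95 ± 0.44, adjusted p = 0.0311). TINAGL1, a basement membrane protein, was 7.49, 12.2 and 31.5 CPM on day 4 and 4.96, 44.8 and 30.2 CPM in treated libraries, against 323, 64.9 and 83.00 CPM on untreated day 7 (adjusted p = 0.753 for treated against day 4). The call was lost for TIMP3 without any library but C4 and C7, CTSV without any library but C4, and ADAM10 without any 1 of the 6 libraries (adjusted p from 0.0611 to 0.146). The unpaired test called TIMP3 but not ADAM10 and CTSV (adjusted p from 0.0502 to 0.0769).

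**Figure D2:**
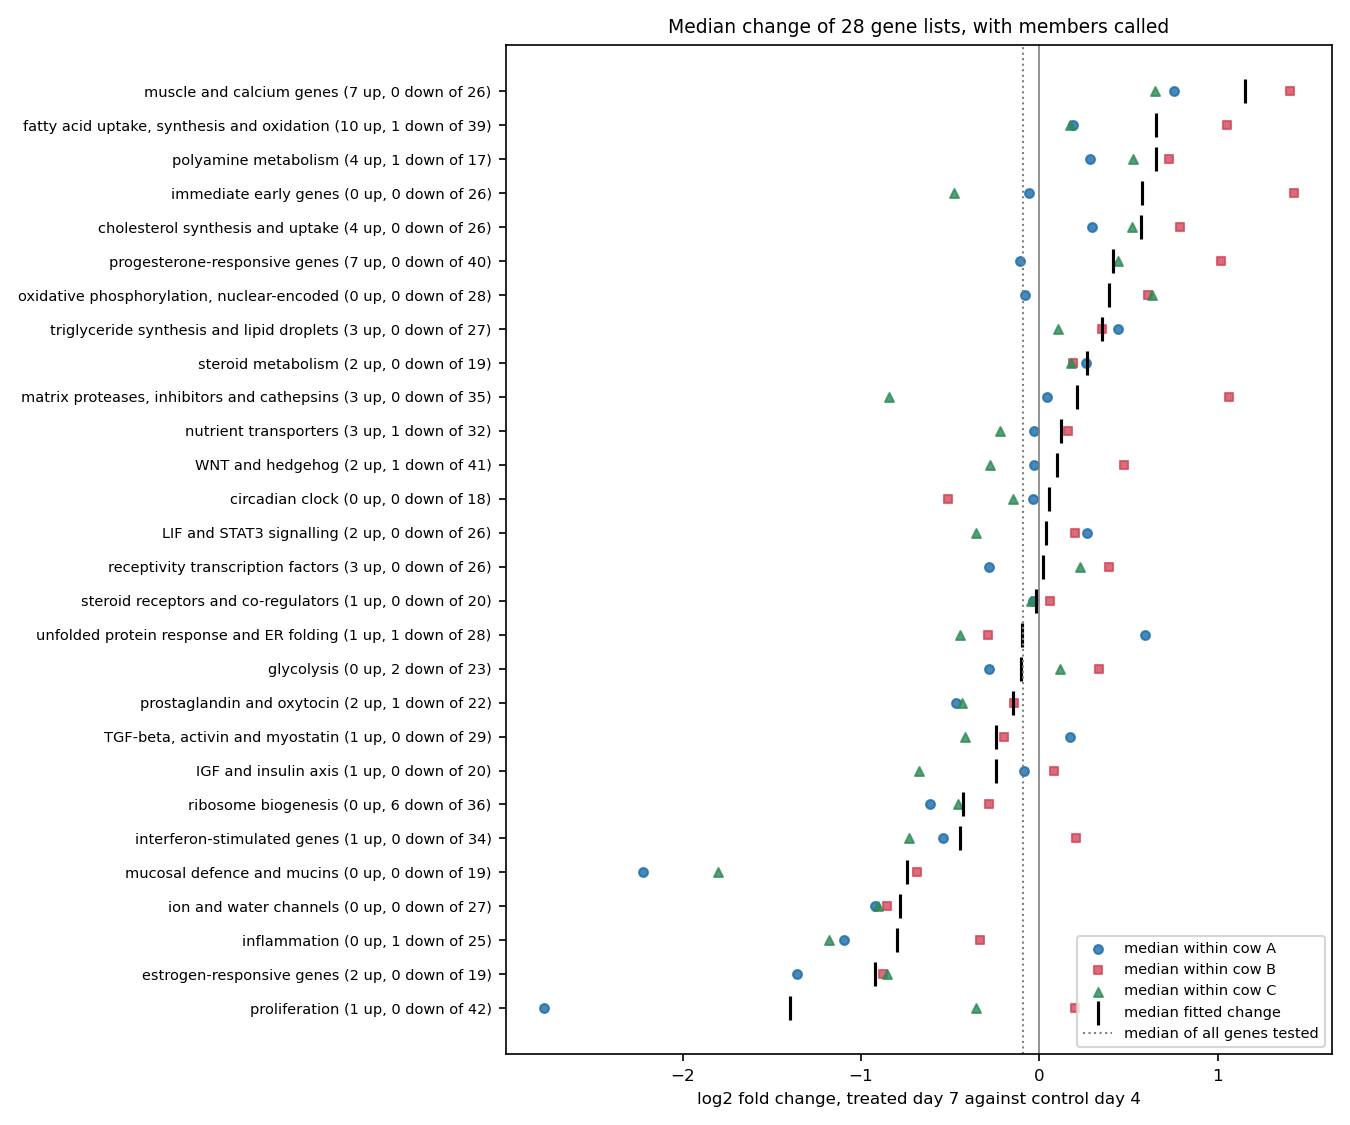
Median log2 change of each of 28 gene lists, treated day 7 against control day 4, as the fitted median (bar) and the median within each cow (points), with the members called in each direction beside the name. The dotted line marks the median of all genes tested, -0.09, and in 15 of the 28 lists the medians of the 3 cows lie on both sides of 0.

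Genes that fell changed by less than those that rose. AEN, a nuclease induced by p53, fell from 13.2, 22.5 and 24.1 to 4.16, 9.05 and 6.85 CPM (-1.59 ± 0.21, adjusted p = 0.00547). CYP2S1, a cytochrome P450, went from 24.5, 32.5 and 72.01 to 4.38, 13.7 and 25.1 CPM, lower in each cow although the groups overlapped (-1.78 ± 0.27, adjusted p = 0.0078). IMPDH2, the rate-limiting enzyme of guanine nucleotide synthesis, fell from 81.1, 79.5 and 103 to 30.6, 46.9 and 53.2 CPM (-1.05 ± 0.16, adjusted p = 0.00862). Cow A had the lowest treated value of the 3 cows for each of these genes. IL4R, the interleukin-4 receptor, fell from 24.5, 33.8 and 43.6 to 13.5, 21.2 and 23.4 CPM (-0.80 ± 0.14), and its untreated day 7 values, 27.03, 28.5 and 44.9 CPM, were within or near the day 4 range. IL4R did not pass in the test of treated against untreated day 7. MYBPC2, a myosin-binding protein, fell by cow from 1.83, 4.27 and 18.8 to 0.512, 1.16 and 3.26 CPM (-2.08 ± 0.37). SLC39A14, a zinc and iron importer, fell from 5.86, 11.6 and 14.7 to 2.34, 4.85 and 4.05 CPM (-1.48 ± 0.28).

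Among the other lower genes of the 15 with the smallest p, TSR1 is described with ribosome biogenesis. Changes were -1.16 for PRAG1, a pseudokinase, -1.06 for RPL7A, a ribosomal protein whose copies may share reads, -0.82 for the zinc finger gene ZNF84 and -0.79 for IFRD2, which binds inactive ribosomes. They were -0.77 for TRMT1, a tRNA methyltransferase, -0.75 for PLEKHM2, a lysosome adaptor, -0.71 for PML, of nuclear bodies, and -0.69 for MPV17, of the inner mitochondrial membrane. Their adjusted p lay between 0.0135 and 0.0188. Leaving out single libraries kept the call of AEN, CYP2S1 and IMPDH2 and ended it for RPL7A without A7, B4 or B7, IL4R without any library but A4 and B7, MYBPC2 and SLC39A14 without any library but A4 and A7, PRAG1 and MPV17 without any library but C4, IFRD2 and PML without any library but A4, and ZNF84, TRMT1 and PLEKHM2 without any 1 of the 6 libraries (adjusted p from 0.0508 to 0.101). With cows ignored, RPL7A, IFRD2 and TRMT1 passed, unlike AEN, CYP2S1, IMPDH2, IL4R, MYBPC2, SLC39A14, PRAG1, ZNF84, PLEKHM2, PML and MPV17 (adjusted p from 0.0502 to 0.218).

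**Figure D3:**
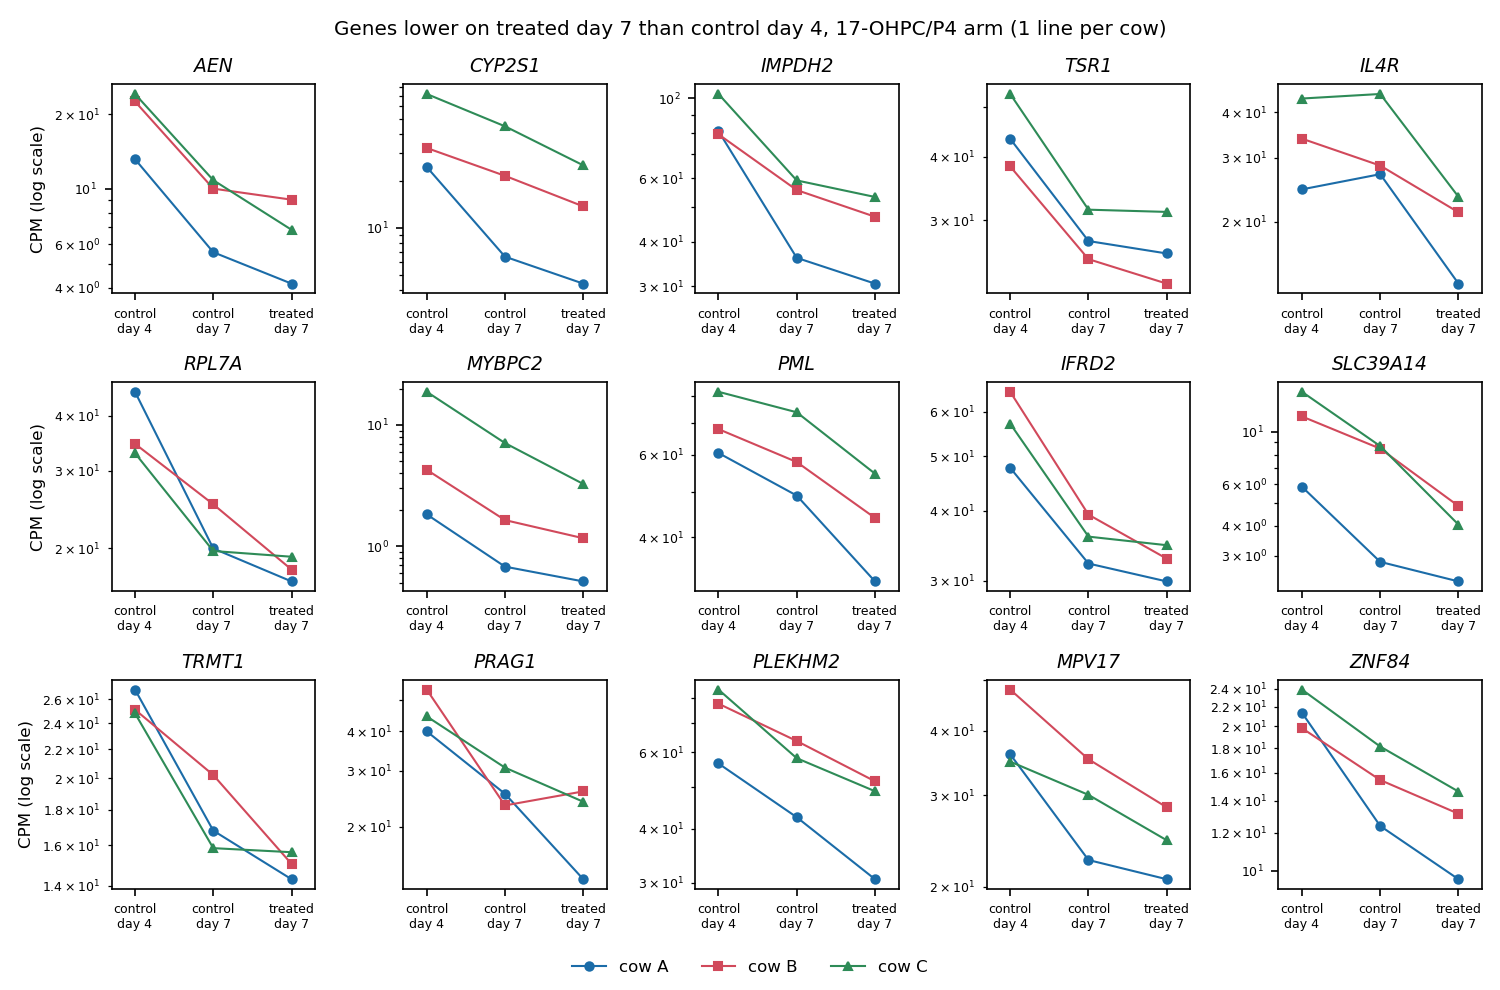
CPM on a log scale for the 15 lower genes with the smallest p, in control day 4, control day 7 and treated day 7 libraries, with 1 line per cow. Each cow's treated point lies below her day 4 point in all 15 panels.

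Ribosome biogenesis had 6 lower calls of 36 tested and 0 higher, a median of -0.43 and 7 positive changes. The called members act in ribosomal RNA processing and subunit assembly. FBL, the nucleolar methyltransferase fibrillarin, fell from 83.2, 65.3 and 72.1 to 38.5, 40.6 and 40.6 CPM (-0.88 ± 0.18, adjusted p = 0.0219). TSR1, of small subunit maturation, fell from 43.3, 38.2 and 53.05 to 25.8, 22.5 and 31.1 CPM (-0.76 ± 0.12, adjusted p = 0.0091). DDX21, a nucleolar helicase, and RRP8, a nucleolar methyltransferase, changed by -0.57 ± 0.14 and -0.69 ± 0.17, with NOP2 at -0.57 and BOP1 at -0.51. The day 4 and treated ranges of FBL, TSR1, DDX21 and RRP8 did not overlap. In the repeats 1 member was lower without A4 or A7 and 0 without another library, and without the pairing 2 passed. DESeq2 called 18 members lower, limma voom 6, the 9-library fit 11 and the 6-library fit 1. Among the repeats, the threshold was missed for TSR1 without any library but A4 and A7, and FBL, DDX21 and RRP8 without any 1 of the 6 libraries (adjusted p from 0.051 to 0.198). Without the pairing, FBL and TSR1 passed and DDX21 and RRP8 did not (adjusted p from 0.0842 to 0.102).

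Several genes of the cytoskeleton, matrix and innate signalling that were singled out after their values were seen also fell. The tubulins TUBB, from 510.2, 211 and 617 to 101, 136 and 245 CPM (-1.50 ± 0.32), and TUBA1B, from 722, 579.6 and 844 to 93.7, 253 and 296 CPM (-1.91 ± 0.44), build microtubules and have near-identical copies that may share reads. TUBG1 and TUBG2, of the microtubule-nucleating complex, changed by -1.09 ± 0.24 and -1.48 ± 0.36. FN1, fibronectin, fell from 143, 348 and 819.7 to 21.9, 43.6 and 213 CPM (-2.57 ± 0.55) and CD44, the hyaluronan receptor, from 51.9, 287 and 223 to 13.6, 83.8 and 47.8 CPM (-1.98 ± 0.42). The groups of FN1 and CD44 overlapped, with cows far apart on day 4. TLR4, the receptor for bacterial lipopolysaccharide, changed by -1.37 ± 0.29, RELB, of the NF-kappaB family, by -1.36 ± 0.30 and TNFRSF1B, a tumour necrosis factor receptor, by -0.93 ± 0.19. Calls were lost in the repeats for TUBB without any library but B4, CD44 and TNFRSF1B without any library but A4, and TUBA1B, TUBG1, TUBG2, FN1, TLR4 and RELB without any 1 of the 6 libraries (adjusted p from 0.0522 to 0.185). The unpaired test did not call any of these genes (adjusted p from 0.0856 to 0.217).

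Proliferation genes were mostly lower in fitted value, with 3 of 42 positive and a median of -1.40, but by edgeR 0 passed as lower, with 10 lower at an unadjusted p under 0.05, 6 with DESeq2, 0 with limma voom, 2 in the 9-library and 0 in the 6-library fit. The median was -2.78 within cow A, 0.20 within cow B and -0.36 within cow C. MKI67, a marker of dividing cells, had 159, 13.2 and 50.5 CPM on day 4 and 8.8, 24.98 and 48.98 CPM after treatment (-1.51 ± 1.05, adjusted p = 0.36), falling in cow A, rising in cow B and nearly level in cow C. Without A4 its change was 0.46. The 1 called member, CCNB1, a cyclin of entry into mitosis, rose from 296, 33.05 and 35.3 to 627, 232 and 199 CPM (2.05 ± 0.51, adjusted p = 0.0445), unlike most of the list. The call was lost for CCNB1 without any library but A4 (adjusted p from 0.0979 to 0.174). With cows ignored, CCNB1 missed the threshold (adjusted p = 0.286).

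Lists of energy metabolism, folding and defence gave few or no calls. Nuclear-encoded subunits of oxidative phosphorylation had 27 of 28 positive changes and a median of 0.39, yet by edgeR 0 passed, with 8 higher at an unadjusted p under 0.05, 2 with DESeq2 and in the 9-library fit and 0 with limma voom and in the 6-library fit. Within cow A the median was -0.08. Without A4, 6 of them were called higher. The share of mitochondrially encoded counts was higher in each cow's treated library, as given above, and its part in this result was not tested. In glycolysis the called members were 2 lower of 23, PFKP, a phosphofructokinase (-1.33 ± 0.32, adjusted p = 0.0382), and ALDOC, an aldolase, from 7.69, 8.1 and 13.3 to 3.9, 4.58 and 3.67 CPM (-1.26 ± 0.32, adjusted p = 0.0477). In the unfolded protein response 1 rose and 1 fell of 28. SYVN1, the ubiquitin ligase that clears misfolded proteins from the endoplasmic reticulum, rose from 172, 101 and 85.00 to 1053, 408 and 312 CPM (2.19 ± 0.46, adjusted p = 0.0247), and TRIB3, a pseudokinase induced by stress, fell from 5.66, 30.96 and 1.99 to 1.28, 1.47 and 0.438 CPM (-3.08 ± 0.66, adjusted p = 0.0255). Left-out libraries ended the call of TRIB3 without any library but A4 and C4, and PFKP, ALDOC and SYVN1 without any 1 of the 6 libraries (adjusted p from 0.0677 to 0.179). Without the pairing, none of these 4 passed (adjusted p from 0.0542 to 0.157).

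Of 34 interferon-stimulated genes 1 was called, RIGI, a sensor of viral RNA, which rose from 49.5, 26.8 and 33.6 to 127, 89.3 and 71.6 CPM (1.39 ± 0.20, adjusted p = 0.0068), while the list median was -0.44. Lower members numbered 6 at an unadjusted p under 0.05, 5 with DESeq2, 3 with limma voom, 3 in the 9-library fit and 0 in the test above and the 6-library fit. Of 25 inflammation genes CXCL2, a neutrophil chemokine, was called lower, from 2.06, 7.85 and 8.04 to 0.384, 1.34 and 2.77 CPM (-2.24 ± 0.54, adjusted p = 0.0388), with a list median of -0.80. Lower members numbered 4 in the 9-library fit and 3 in the 6-library fit. By edgeR 0 of 27 ion and water channels passed (median -0.78), with 1 higher and 6 lower at an unadjusted p under 0.05, 5 called by DESeq2 and 2 by limma voom. The 9-library fit called 1 higher and 8 lower and the 6-library fit 6 lower. Likewise 0 of 19 mucosal defence genes and mucins passed (median -0.74), with 2 lower at that p and by DESeq2 and 0 by limma voom, against 8 lower in the 9-library and 5 in the 6-library fit. Among 26 immediate early genes (median 0.58) and 18 clock genes (median 0.06) 0 passed, with 2 in each at that p, 0 and 1 by DESeq2 and 0 by limma voom. The 9-library fit called 0 and 3 and the 6-library fit 1 and 0. MEX3A, an RNA-binding protein of stem cells, was 8.78, 4.95 and 9.21 CPM and then 2.94, 3.26 and 4.52 CPM, lower in each cow, and did not pass (-1.10 ± 0.34, adjusted p = 0.0809). Among the repeats, the threshold was missed for RIGI without B4, and CXCL2 without any library but C4 (adjusted p from 0.0582 to 0.156). The unpaired test did not call RIGI and CXCL2 (adjusted p from 0.058 to 0.254). CXCL2 also lost its call in limma voom.

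Cell type markers moved with the comparison in some lists. All 21 ciliated cell genes tested had negative changes (median -1.27), and their summed level was 335, 2160 and 822 CPM on day 4 and 109, 731 and 354 CPM in the treated libraries of cows A, B and C. In the test on 18 libraries, with DESeq2 and with limma voom 0 passed, with 3 at an unadjusted p under 0.05 in the first. The paired 9-library fit called 14 lower and the 6-library fit 15. FOXJ1, the master regulator of motile cilia, did not pass on 18 libraries (51.6, 301 and 129 against 11.2, 104 and 43.3 CPM, adjusted p = 0.178) and passed in those 2 fits (adjusted p = 0.0142 and 0.0306), and the cilium marker CAPS was at 0 in all 6 libraries. From day 4 to untreated day 7 in cows A, B and C, 0 of the 21 ciliated cell genes had positive changes (median -0.77), with 0 called. Treated minus untreated day 7 had a median of -0.63, with 2 positive and 0 called. In the P4 arm (cows D, E and F) 20 of the 21 ciliated cell genes had positive changes (median 0.50), with 0 called. Day 4 sums of the ciliated markers were 195 to 341 CPM in that arm. The difference between the arms had a median of -1.95 over these genes, again with 0 called. T and NK cell markers summed to 154 to 291 CPM on day 4 and 107 to 172 CPM in treated libraries, lower in each cow. By edgeR 0 of 28 were called, with 10 lower at an unadjusted p under 0.05, 5 by DESeq2, 2 by limma voom, 4 in the 9-library fit and 0 in the 6-library fit. PTPRC, carried by all leukocytes, had 36.6, 45.1 and 89.6 and 33.6, 60.2 and 48.7 CPM (adjusted p = 0.738).

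Neutrophil markers summed to 3859, 20272 and 11599 CPM on day 4 and to 347, 3847 and 2523 CPM in treated libraries, but LTF, which epithelium also makes, supplied nearly all of it. Without LTF the sums were 18.8, 31.9 and 239 CPM and then 11.4, 182 and 53.4 CPM, lower in cows A and C and higher in cow B. MMP8 and CATHL3, 2 defining granule genes, were at 0 in all 6 libraries, and S100A8 was at 0.338, 0.187 and 11.8 CPM and then 0, 10.6 and 1.92 CPM (adjusted p = 0.947). Red blood cell markers were at 2398 CPM in C4 and 368 CPM in C7, against at most 19.9 CPM in the other 4 libraries. Among epithelial markers the cytokeratin KRT7 fell from 480.2, 531 and 613 to 56.05, 175 and 251 CPM (-2.01 ± 0.51, adjusted p = 0.0477), the tight junction gene CLDN7 rose from 300.0, 263 and 205 to 929, 983 and 533 CPM (1.64 ± 0.34, adjusted p = 0.0232), and KRT8 had 797, 576 and 781 and 382, 434 and 569 CPM (adjusted p = 0.191). The part of cell composition in the gene changes above was not tested. Calls were lost in the repeats for KRT7 and CLDN7 without any 1 of the 6 libraries (adjusted p from 0.0731 to 0.212). With cows ignored, KRT7 and CLDN7 missed the threshold (adjusted p from 0.0528 to 0.135).

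**Figure D4:**
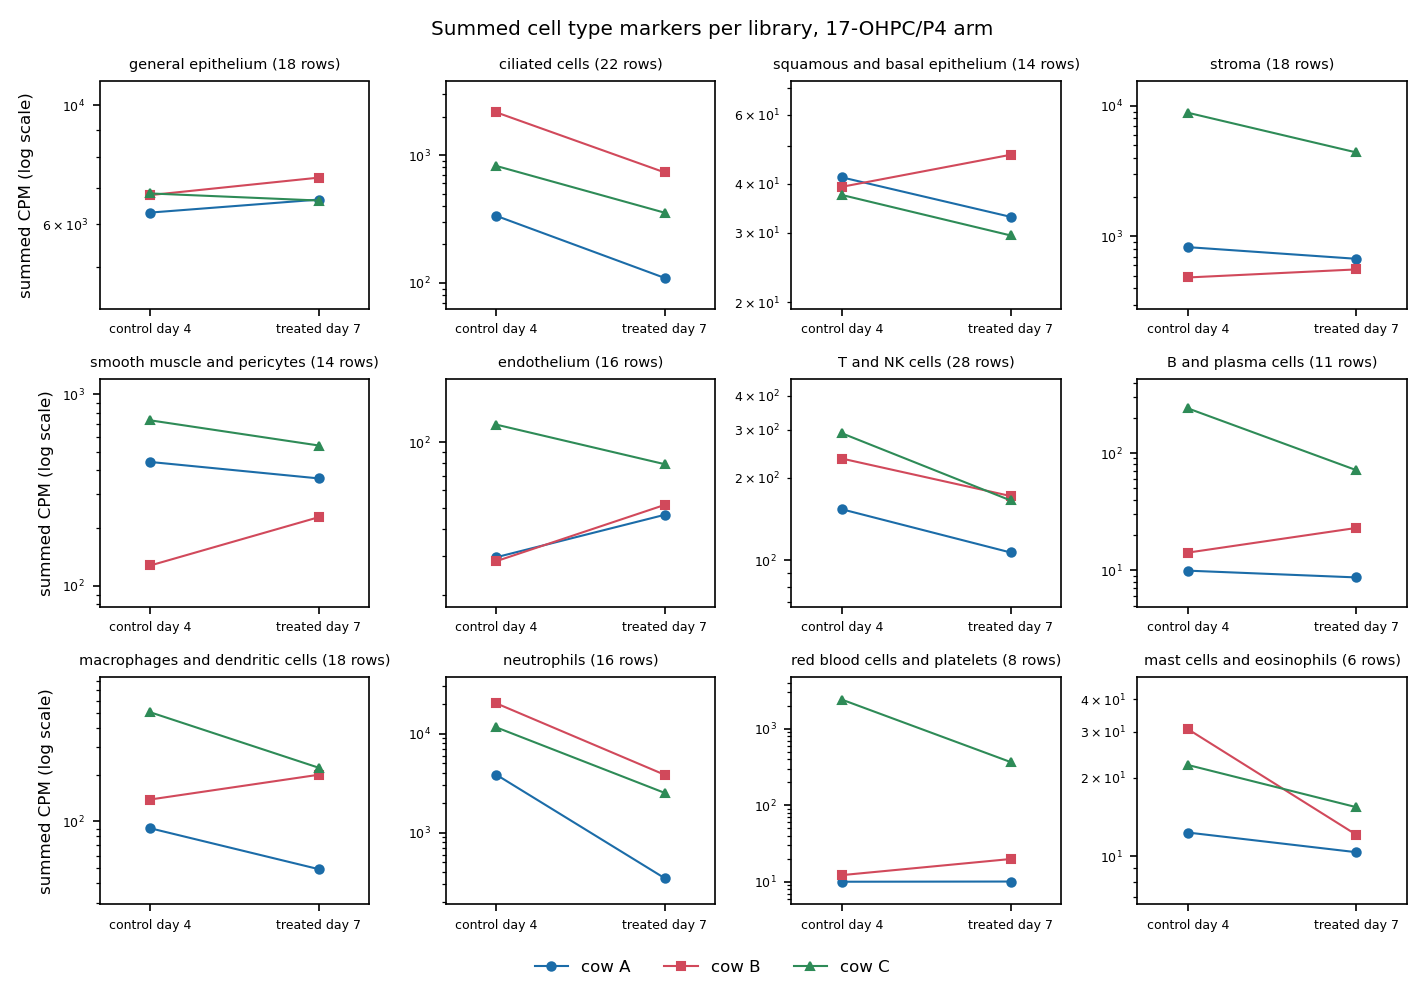
Summed CPM of 12 cell type marker lists in the control day 4 and treated day 7 libraries, on log axes, with 1 line per cow. Ciliated and T and NK cell sums were lower in the treated library of each cow, and the stromal and red blood cell sums were highest in cow C.

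Treated day 7 libraries were also set beside the untreated day 7 libraries of the same cows, which share the cycle day but not the cycle or the injection. By edgeR 0 of 19638 genes passed (0.00%), with 850 at an unadjusted p under 0.05 and a smallest adjusted p of 0.87. DESeq2 called 8 and limma voom 0. The untreated change from day 4 to day 7, which uses the same day 4 libraries, had 105 genes higher (0.535%) and 3 lower (0.0153%), the 3 being TSR1, AEN and AXIN2. All 105 were also among the 832 genes called higher on treated day 7. For DGAT2 the untreated change was 7.02 ± 0.73 and treated minus untreated day 7 was -0.29 ± 0.56. For MYH7B they were 5.23 ± 0.50 and 0.82 ± 0.42, and for SAT1 1.56 ± 0.31 and 1.01 ± 0.30. For ALPL they were 3.62 ± 0.60 and 0.27 ± 0.54, and for CYBRD1 3.59 ± 0.56 and 0.26 ± 0.50. For SLC11A2 they were 2.52 ± 0.48 and 0.23 ± 0.46, and for ANPEP 1.84 ± 0.61 and 1.05 ± 0.58. FN1 and CD44 had treated minus untreated day 7 values of -1.54 ± 0.53 and -1.69 ± 0.42, and SLCO2A1 -2.16 ± 0.56. None of these day 7 differences passed, which does not show that the groups were alike. The count for the untreated change fell to between 7 and 66 on leaving out 1 library, lowest without B4, and to 8 without the pairing.

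The P4 arm gave the same comparison in other cows, with no library in common. There 1525 genes were higher and 1177 lower (7.77% and 5.99%, together 13.8%). Of the 832 genes higher in the 17-OHPC/P4 arm, 640 were also higher in the P4 arm, which is 76.9% of the former and 42.0% of the latter. Of the 197 lower genes, 109 were shared, 55.3% of the former and 9.26% of the latter, and 0 genes were called in opposite directions. MYH7B went from 11.6, 12.7 and 10.5 to 759, 697 and 1362 CPM in cows D, E and F (6.38 ± 0.53), and DGAT2 from 2.77, 1.27 and 3.08 to 125, 476 and 248 CPM (6.57 ± 0.72). Of 42 proliferation genes 35 were called lower in the P4 arm, with a median change of -3.12. The P4 arm had 1269, 1086 and 869 calls without the day 4 library of cow D, E or F and 702 without the treated library of cow F.

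The difference between the arms was tested for every gene, and 0 passed by edgeR (0.00%), with 1147 at an unadjusted p under 0.05 and a smallest adjusted p of 0.643. DESeq2 called 63 and limma voom 0, and without A4 edgeR called 3, NAPRT, TACC3 and SPAG1. The 3 genes with the smallest p were named by rule, and none of them passed. NAPRT, of NAD synthesis, changed by 0.40 here and 2.10 in the P4 arm, a difference of -1.69 ± 0.27 (adjusted p = 0.643). UTRN, utrophin, changed by 0.27 and -0.93, and RASGRF2, a Ras exchange factor, by -0.84 and 1.88. MKI67 changed by -1.51 here and -4.53 there, a difference of 3.01 ± 1.38 (adjusted p = 0.821), SLCO2A1 by -2.37 and 0.58 (-2.96 ± 0.76, adjusted p = 0.821) and PGR by -0.43 and -1.12 (0.69 ± 0.35, adjusted p = 0.821). Of the 1029 genes called here, 105 had an arm difference at an unadjusted p under 0.05.

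**Figure D5:**
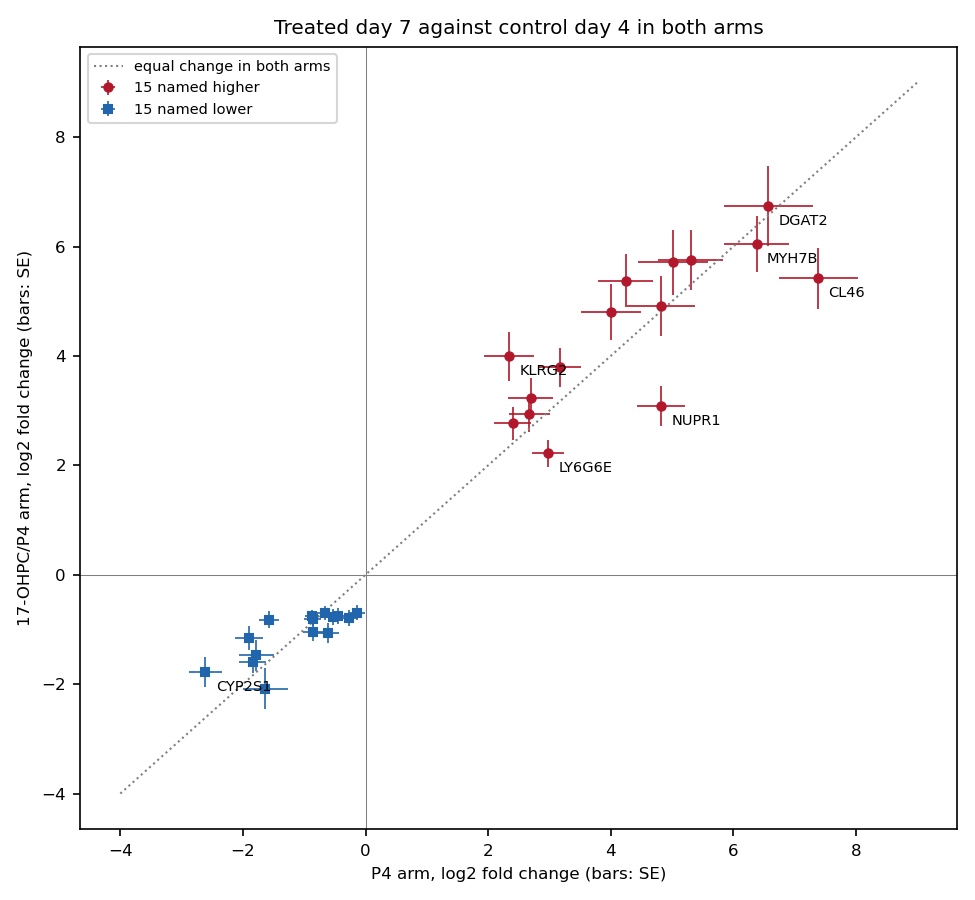
Log2 change, treated day 7 against control day 4, in the P4 arm (x) and the 17-OHPC/P4 arm (y) for the 15 higher and 15 lower genes with the smallest p in the 17-OHPC/P4 arm, with bars of 1 SE. The genes were chosen on the y axis, and all 30 lie on the same side of 0 in both arms.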

How the data were processed

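The deposited file held raw counts per gene for 18 libraries, 38001 rows named by Ensembl ID, 17715 of them without a symbol. Per the submitters' processing notes, the authors used cutadapt, FastQC, STAR, featureCounts and DESeq2, and versions, genome build, annotation and strand setting were not given in the sources used here. Without the strand setting, overlapping and antisense genes cannot be told apart. Low counts were mostly even (78.3% of counts from 1 to 20), as if both mates of a pair had been counted, which no source used here states.

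Genes were kept by filterByExpr (19638) and tested in R 4.3.3 with edgeR 4.0.16 (quasi-likelihood F test, robust, TMM factors 0.881 to 1.16). All 18 libraries were fitted, so that groups share 1 estimate of spread, with cow as a block (8 residual degrees of freedom, biological coefficient of variation 39.4%). For each of 5 comparisons, p-values of all genes tested were corrected by the Benjamini-Hochberg method, and 0.05 was the threshold. CPM use TMM library sizes, and changes within a cow a prior count of 2. The pairing comes from the labels, which give 1 letter per cow. Deviations of the treated and day 4 libraries of a cow from their group means correlated at 0.55, 0.39 and 0.60.

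Named genes were the 15 higher and 15 lower with the smallest p and 1 direction in 3 of 3 cows, up to 4 called members per list by size of change, 3 genes for the arm difference, and 24 fixed genes. Some others were added after their values were seen: those said so, and SRL, SSUH2, DISC1, TSC22D3, AMD1, NOP2, BOP1, CUBN and fatty acid genes beyond 4. A few called members that are counted are not reported here by name. The members, the 40 lists (28 gene groups and 12 marker lists, 930 of 979 symbols in the table) and the choice of a block were made with earlier results of these data known. Tests were tried without the block, on 9 and on 6 libraries, with DESeq2 1.42.0, limma 3.58.1 voom, RLE factors, no filter and without each library, and scripts were tested on simulated data.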

Additional observations from a re-analysis of the deposited data

How the results depend on the processing

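The number of genes called moved with most settings. Genes higher on treated day 7, 832 in the test above, numbered 129 without the replicate block, 1675 on the 9 libraries of the arm, 664 on the 6 libraries compared, 2025 with DESeq2, 1019 with limma voom, 836 with RLE factors and 726 with no filter. Genes lower, 197 above, numbered 5, 1714, 523, 1430, 472, 190 and 104 in the same order. Leaving out 1 library gave 82 to 574 higher and 6 to 34 lower, and the cause of these shifts was not tested. The 6-library fit shared 606 of its 1187 calls with the 1029.

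Treated against untreated day 7 had 0 calls, and 8 with DESeq2. The untreated change from day 4 to day 7, 108 calls, gave 8 without the block, 277 on 9 libraries, 993 with DESeq2 and 7 to 66 without 1 library. The P4 arm, 2702 calls, gave 1468 without the block, 4697 with DESeq2 and 702 to 2764 without 1 library. The difference between the arms, 0 calls, gave 63 with DESeq2 and 0 to 3 without 1 library.

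Of the 103 called genes chosen for naming, 73 passed on 6 libraries, 103 on 9, with DESeq2 and with RLE factors, 101 with limma voom and 91 with no filter. Sign changes occurred for 9 named genes, all uncalled. Leaving out 1 library gave FKBP5 -0.018 to 0.80, HAND2 -0.79 to 0.83, IHH -1.37 to 0.68, MKI67 -2.68 to 0.46, MSTN -1.31 to 0.39, PTPRC -0.51 to 0.086, S100A8 -2.35 to 2.88, TINAGL1 -0.45 to 1.58 and WNT5A -0.21 to 0.97. Without the block WNT5A was -0.049 and HAND2 -0.65. S100A8 was -0.72 on 6 libraries and -0.0085 with limma voom, where HAND2 was -0.40. Of 520 recomputed list medians, 477 stayed within 1 SD of the medians of the 3 cows. With 3 cows per group, changes of low or variable genes were not resolved.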
